A study of Xenopus laevis with 6 samples.

Results

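Genes of membrane trafficking were compared between primordial germ cells (PGCs) and endoderm cells of stage 12 to 14 Xenopus laevis embryos. The members were the gene models whose symbol names a Rab, Arf, Arl or Sar1 GTPase, a Sec, COPI, VPS, sorting nexin, syntaxin, VAMP, AP-1 to AP-4 adaptor, exocyst, TRAPP or CHMP protein. Of 10364 gene models in the table named v9.1, 253 met this rule, and they carried 157 symbols. By symbol, 78 gene models were placed in traffic between the endoplasmic reticulum (ER) and the Golgi, 136 in the endosomal system, 20 in vesicle tethering and fusion at later steps, and 19 elsewhere, among them Rabs and Arls of cilia or of unsettled role. The rule is one of names, so a few members lie outside trafficking, such as vps72, a chromatin subunit, and the lipid-transfer genes sec14l1 and sec14l3. The ER-Golgi group likewise holds genes that act at the ER rather than in vesicle traffic. Among them are 5 gene models of the Sec61 translocon and 4 of the signal peptidase SEC11.

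The study sequenced ribosomal-RNA-depleted RNA in 6 libraries, 3 labelled PGC and 3 labelled endoderm, to find RNAs that PGCs carry in excess over their endoderm neighbours. Neither group carried a named mutation, transgene or treatment. The labels describe 3 library aliquots of 1 ng of each RNA sample and do not say that libraries came from separate cell collections, so the spread behind each p-value is that of these libraries alone and may be technical. Each library pools many cells, so fewer cells with an RNA and less RNA per cell cannot be told apart.

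Vesicles move cargo between membranes in a fixed cycle. COPII coats, built on Sar1, carry proteins out of the ER, and COPI coats, recruited by Arf1-type GTPases, carry them back. Rab GTPases mark each compartment and recruit tethers such as TRAPP, HOPS and the exocyst, after which SNAREs fuse the membranes, while adaptors, sorting nexins, retromer and ESCRT complexes sort cargo in endosomes. Xenopus PGCs form from the cells that receive germ plasm, a vegetal store of maternal RNA and mitochondria, and lie among yolk-laden endoderm cells, in which yolk is held in platelets related to lysosomes.

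Total counts were 9.9 to 28.3 M in the endoderm libraries and 14.5 to 16.9 M in the PGC libraries. Levels are given as counts per M of a library size corrected for composition (CPM), with the mean and SD of the libraries of a group (n = 3) joined by ±. Differences are log2 fold changes of PGC over endoderm, joined by ± to standard errors. These were derived from the F statistic of the same fit, as the fold change over its square root. CPM are not corrected for gene length, so levels are not compared between genes. The germ line markers ddx25, dazl and nanos1 stood at log2 fold changes of 7.54 ± 0.04, 7.66 ± 0.07 and 7.75 ± 0.15, and the endoderm regulator gata6 at -1.33 ± 0.10 and -0.74 ± 0.18 in its 2 gene models. A list of germ line markers summed to 136200 to 137700 CPM in PGC libraries and 1286 to 1360 CPM in endoderm libraries, with 7 of 10 gene models higher and 1 lower in PGCs. Of 15 endoderm marker gene models 3 were higher and 11 lower in PGCs (3604 to 3856 against 5705 to 5981 CPM in sum). Mesoderm markers summed to 287 to 362 CPM in PGC libraries and 156 to 172 CPM in endoderm libraries, with 4 of 14 gene models higher and 0 lower. Ectoderm and neural markers summed to 1492 to 1529 against 1685 to 1823 CPM, with 7 of 12 higher and 4 lower. Some listed markers, among them tdrd6, vegt and tbx6, had no gene model in v9.1, which holds none under 150 counts over the 6 libraries. No marker present there was at 0 in all libraries of a group. In the endoderm libraries together, sox2 and pcdh8 Xelaev18015748m had 1 count each. The part of other cell types in the values below was not tested.

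Calls among ER-Golgi genes were mostly lower in PGCs. Among endosomal genes higher calls outnumbered lower ones, with 9 of the 21 higher and 1 of the 11 lower calls in sorting nexins. No test of the difference between these groups was made. The quasi-likelihood test of edgeR, adjusted over all gene models (Benjamini-Hochberg), placed 32 of 253 members higher and 38 lower in PGCs, 27.7% in all, where 29.3% of all gene models passed (12.6% higher and 16.8% lower). Of these, 30 members were at least 2-fold higher and 22 at least 2-fold lower, beside 10.2% and 10.1% of all gene models. The median log2 fold change of the members was 0.04, beside 0.07 for all gene models. Among ER-Golgi members 5 were higher and 22 lower (6.41% and 28.2%), with a median of -0.29. Of these lower calls 3 were in the Sec61 translocon. Among endosomal members 21 were higher and 11 lower (15.4% and 8.09%), with a median of 0.23. Fusion members split into 3 higher and 4 lower, and the remaining members into 3 higher and 1 lower. Libraries of the 2 groups did not overlap for 120 members, 62 with PGCs above and 58 with PGCs below, beside 48.2% of all gene models (24.5% and 23.7%).

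Library scaling moved these splits. Under scaling by total counts alone the median of all gene models rose to 0.39, and 45 members were higher and 21 lower (18.6% and 10.8% of all gene models); with scaling that follows expression level that median was -0.05, and 23 members were higher and 26 lower (12.5% and 11.2%). ER-Golgi members split into 7 higher and 12 lower under total counts and 3 higher and 12 lower under scaling by expression level, and endosomal members into 29 and 8 and into 15 and 9. The ER-Golgi median was 0.03 under total counts and -0.39 under scaling by expression level. The endosomal median was 0.55 and -0.03, the latter near the -0.05 of all gene models. Fold changes also followed the level of a gene model. Over all gene models its median was 0.61 in the tenth with the lowest mean CPM and -0.75 in the tenth with the highest, and ER-Golgi members had a median of 39.1 mean CPM against 23.6 for endosomal members and 29.1 for all gene models. What part of the split goes with level was not tested beyond these scalings. Of the 32 higher and 38 lower calls, 14 and 16 held under all of 13 other settings, which changed the scaling, the test, the filter or the replicate term or left out 1 library, and a named call that did not hold is marked as such. The setting without a filter repeated the main fit, because the filter removed 0 gene models. How large a share of the calls among all gene models held was not counted.

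**Figure D1:**
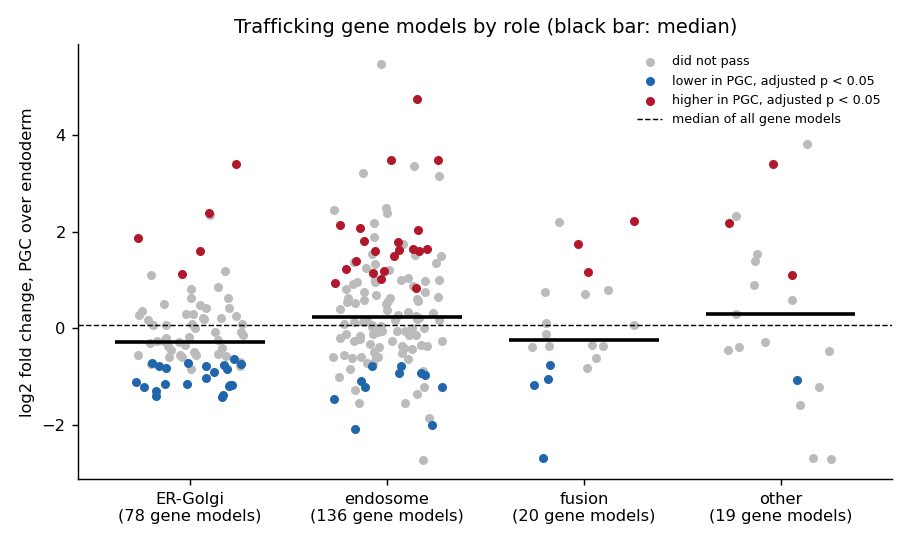
Log2 fold change of PGC over endoderm for each of the 253 trafficking gene models, by role, with the median of each role as a black bar and the median of all gene models as a dashed line. Lower calls gather in the ER-Golgi column (22 of 78 gene models, 28.2% beside 16.8% of all gene models). Higher calls are most numerous in the endosome column (21 of 136), which is the largest. Their share there, 15.4%, lies near those of the fusion column (3 of 20) and the remaining column (3 of 19). Of all gene models 12.6% were higher. Every column holds both kinds of call.

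Of 5 gene models of the Sec61 translocon, 3 were lower in PGCs and 0 higher, 60.0% lower beside 16.8% of all gene models. Sec61 forms the channel through which new secretory proteins enter the ER, and both gene models of its pore subunit sec61a1 fell. Xelaev18025899m stood at 121, 117 and 136 CPM in PGC replicates 1, 2 and 3 and at 309, 273 and 331 CPM in endoderm replicates 1, 2 and 3, a log2 fold change of -1.29 ± 0.15 (adjusted p = 2.88e-05). Xelaev18023991m stood at 178, 130 and 186 CPM against 386, 312 and 398 CPM (-1.15 ± 0.17, adjusted p = 0.000221). Every PGC library lay below every endoderm library for both, and both calls held under the other settings, at -0.78 and -0.55 when scaling followed expression level. The small subunit gene sec61b fell by 0.72 ± 0.16, a call lost under total-count scaling (-0.41) and scaling by expression level (-0.14), while neither gene model of sec61g passed.

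Of 11 gene models of the COPII coat, 5 were lower and 1 higher in PGCs. These shares, 45.5% and 9.09%, stood beside 16.8% and 12.6% of all gene models. Under total-count scaling 2 were lower, and under scaling by expression level 1. sec13 and sec31a encode the outer cage, and sec23b part of the inner layer. sec31a stood at 152, 142 and 166 CPM in PGC libraries and 324, 236 and 376 CPM in endoderm libraries, a log2 fold change of -1.03 ± 0.18, with no overlap between groups; the call was lost, at -0.47, when scaling followed expression level. One sec13 gene model (Xelaev18025861m) fell by 1.14 ± 0.25, from 118 ± 21.1 to 53.3 ± 15.3 CPM, and held under every setting tried. The other sec13 gene model (-0.78 ± 0.25) and both of sec23b (-0.75 ± 0.18 and -0.71 ± 0.20) passed with all 6 libraries but not under total-count scaling or scaling by expression level. Leaving out any single library except PGC replicate 1 ended the sec13 call, and such fits gave -0.61 to -0.99. One sec23b call was lost without endoderm replicate 1 (-0.60), and the other without PGC replicate 1 or 2 or endoderm replicate 1 (-0.56, -0.66 and -0.63). sec23ip, whose product binds SEC23 at ER exit sites, fell in one gene model by 1.2 ± 0.27 (47.5 ± 10.8 against 109 ± 34.3 CPM), and its other gene model stood at 0.06 and did not pass. The Sar1 gene sar1a, which starts coat assembly, did not pass in either gene model (-0.57 and 0.18). The exception was sec24b, a cargo-binding subunit of the inner layer, at 54.4, 51.0 and 20.2 CPM in PGC libraries and 7.50, 2.62 and 14.1 CPM in endoderm libraries (2.39 ± 0.62, adjusted p = 0.0114). Its groups did not overlap, but leaving out PGC replicate 1 or 2 ended the call (2.15 and 2.22), and its other gene model stood at 0.22.

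COPI coat genes gave 4 lower and 0 higher calls among 11 gene models, 36.4% lower beside 16.8% of all gene models. copg2, a gamma subunit, stood at 57.0, 63.2 and 68.3 CPM in PGC libraries and 112, 163 and 165 CPM in endoderm libraries, a log2 fold change of -1.22 ± 0.21 (adjusted p = 0.000753) that held under every setting tried. copz1, copg1 and copa each had 1 gene model that fell and 1 that did not pass. Leaving out PGC replicate 1, PGC replicate 3, endoderm replicate 2 or endoderm replicate 3 ended the copz1 call (-1.39 ± 0.43), at -1.43, -1.11, -1.26 and -1.14, and with the replicate number as a block, at -1.39. The copg1 call (-1.16 ± 0.37) was lost on leaving out any of PGC replicates 1 and 2 and endoderm replicates 1 and 2, at -0.88, -1.17, -0.99 and -1.13, and the copa call (-0.83 ± 0.23) without PGC replicate 1 or endoderm replicate 1, at -0.73 in each case. All 3 were lost under total-count scaling (-1.06, -0.85 and -0.51).

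The small GTPases and tethers between ER and Golgi split by gene. rab1a, the Rab of ER-to-Golgi transport, fell in both gene models. Xelaev18026492m stood at 40.1, 30.5 and 34.3 CPM in PGC libraries and 94.8, 80.8 and 102 CPM in endoderm libraries (-1.40 ± 0.24, adjusted p = 0.00086), and Xelaev18028499m at 131, 136 and 103 CPM against 245, 269 and 285 CPM (-1.11 ± 0.16, adjusted p = 0.000212). Both held under every setting tried, the second at -0.63 when scaling followed expression level. rab2a and rab2b encode closely related Golgi Rabs and went opposite ways. One rab2a gene model fell by 1.18 ± 0.26, from 106 ± 28.8 to 46.7 ± 7.12 CPM, and the other stood at -0.52 and did not pass, whereas both rab2b gene models rose. rab2b Xelaev18010279m stood at 37.1, 33.6 and 32.8 CPM in PGC libraries and 13.8, 6.07 and 8.62 CPM in endoderm libraries (1.86 ± 0.46, adjusted p = 0.00928) and held under every setting tried. The other rab2b gene model rose by 1.59 ± 0.46, a call lost without PGC replicate 3 (1.12) or endoderm replicate 1 (1.59) and when scaling followed expression level (1.27). How reads that match both genes were assigned is not given in the sources used here.

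Among Arfs, which recruit COPI and adaptor coats, arf3 rose while arf1, arf4 and arf5 gave lower calls. arf3 Xelaev18015827m stood at 48.4, 54.8 and 49.4 CPM in PGC libraries and 5.91, 8.18 and 0.113 CPM in endoderm libraries, the last from 1 count in the shallowest library. Its log2 fold change of 3.39 ± 0.82 (adjusted p = 0.00756) was 2.88 to 3.98 over the other settings and passed in each, and the other arf3 gene model stood at 2.35 and did not pass. Both arf4 gene models fell (-0.83 ± 0.20 and -0.76 ± 0.17), as did 1 of arf5 (-0.90 ± 0.18) and 1 of arf1 (-0.63 ± 0.20), while the other gene models of arf5 and arf1 stood at -0.20 and -0.49 and did not pass. None of these 4 passed when scaling followed expression level, where they stood at -0.36, -0.31, -0.47 and -0.25, and of the 4 only arf5 passed under total-count scaling. The arf1 call was also lost with the replicate number as a block and on leaving out any of PGC replicates 1 and 3 and endoderm replicates 1 and 3, with fits that left out 1 library giving -0.49 to -0.81.

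TRAPP, the tether that activates RAB1, gave 1 call among 14 gene models, 7.14% lower beside 16.8% of all gene models. trappc5, a subunit of the shared core, stood at 42.4, 59.0 and 50.5 CPM in PGC libraries and 121, 158 and 127 CPM in endoderm libraries (-1.42 ± 0.21, adjusted p = 0.000318), and held under every setting tried. The other 13 TRAPP gene models ranged from -0.85 to 0.85. stx5, the Golgi SNARE, rose by 1.13 ± 0.39 in 1 gene model and stood at 1.10 without passing in the other, but leaving out any library except PGC replicate 2 ended the call, at 0.97 to 1.22, with the replicate number as a block (1.06) and when scaling followed expression level (0.89).

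**Figure D2:**
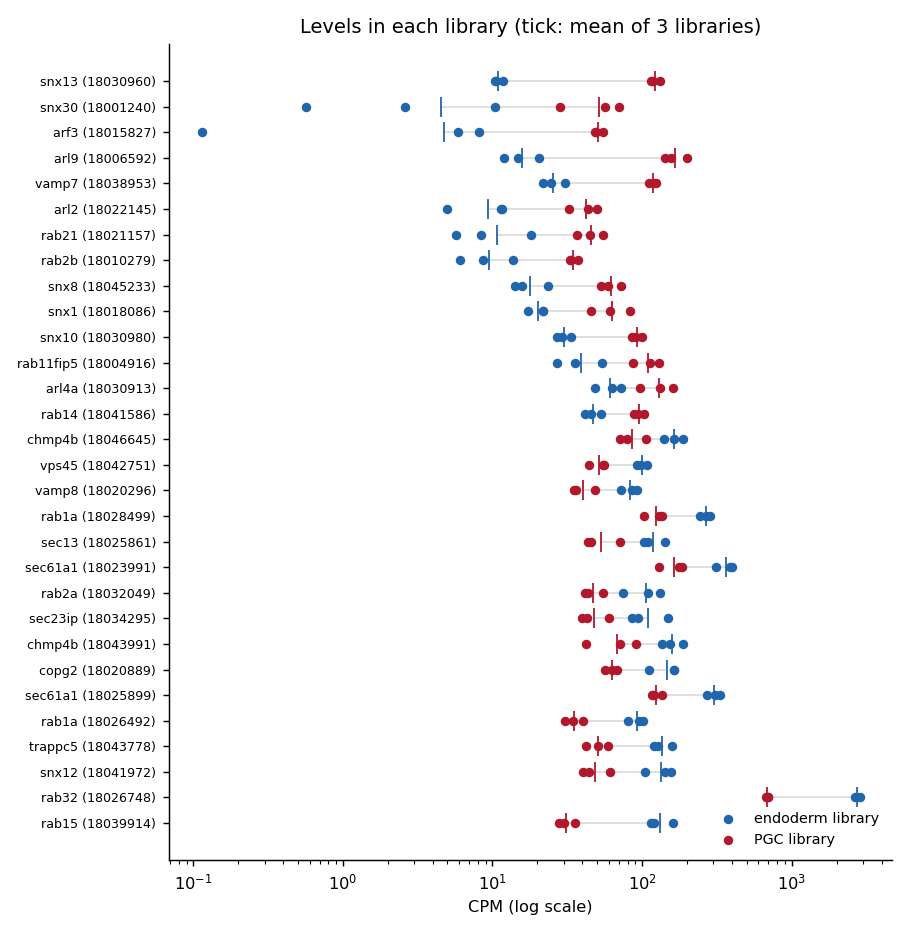
CPM (log scale) in each of the 6 libraries for the 30 trafficking gene models whose call held under all 13 other settings, labelled by symbol and the number in their ID, with the mean of each group as a tick. PGC and endoderm libraries do not overlap for any of them, and the level of rab32 is the one above 1000 CPM.

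The largest fall by adjusted p among the members was that of rab32, a Rab of lysosome-related organelles such as melanosomes. rab32 Xelaev18026748m stood at 697, 676 and 694 CPM in PGC libraries and 2674, 2849 and 2722 CPM in endoderm libraries, 3.99-fold lower in PGCs (-2.0 ± 0.07, adjusted p = 9.29e-10). The libraries of each group lay close together and the groups far apart. The value was -1.68 under total-count scaling and -0.76 when scaling followed expression level, and passed under both. rab15, a Rab of early and recycling endosomes, fell in 1 of its 2 gene models, from 121, 114 and 162 CPM in endoderm libraries to 35.4, 30.1 and 27.8 CPM in PGC libraries (-2.09 ± 0.23, adjusted p = 2.47e-05), and stood between -2.19 and -1.77 over the other settings. The other rab15 gene model stood at 0.51 and did not pass.

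Of the 42 Rab gene models 6 were higher and 6 lower in PGCs, 14.3% each way beside 12.6% and 16.8% of all gene models. The higher count holds both rab2b gene models given above, but not rab11fip5 or arl8b below. Among the higher calls was rab14, of the Golgi and early endosomes. It stood at 103, 89.0 and 93.3 CPM in PGC libraries and 41.7, 45.6 and 53.4 CPM in endoderm libraries (1.02 ± 0.22, adjusted p = 0.00402) in 1 gene model, and its other gene model did not pass (0.57). rab21, which in mammalian cells directs integrin recycling, rose in both gene models. Xelaev18021157m stood at 54.5, 36.5 and 45 CPM against 18.2, 5.73 and 8.39 CPM (2.07 ± 0.48, adjusted p = 0.00583), and Xelaev18017560m rose by 1.64 ± 0.44, a call lost on leaving out PGC replicate 1 or 3 or endoderm replicate 1 (1.58, 1.54 and 1.5). rab11fip5, whose product links Rab11 to recycling endosomes, rose from 39 ± 13.8 to 110 ± 21.8 CPM (1.49 ± 0.29, adjusted p = 0.0018). Its partner rab11a did not pass in either gene model (0.02 and -0.60), nor did rab5b (2.50 and 0.95) or rab4b (0.25 and 0.75). rab7a and arl8b, GTPases of late endosomes and lysosomes, each rose in 1 gene model (0.83 ± 0.28 and 1.19 ± 0.34) and not in the other (0.15 and 0.00). The rab7a call was lost on leaving out any library but endoderm replicate 1 (0.65 to 0.95), and the arl8b call on leaving out PGC replicate 2 or endoderm replicate 1 (0.99 and 1.22).

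Sorting nexins are lipid-binding proteins that shape and sort endosomal tubules. Of 39 gene models 9 were higher and 1 lower in PGCs, 23.1% and 2.56% beside 12.6% and 16.8% of all gene models, with a median log2 fold change of 1.01; under total-count scaling 10 were higher and 1 lower, and under scaling by expression level 6 and 1, with medians of 1.31 and 0.54. The medians of all gene models under the 3 scalings were 0.07, 0.39 and -0.05. As a share of counts, sorting nexins took 0.153 ± 0.0103% of PGC libraries and 0.0884 ± 0.00678% of endoderm libraries (SD, n = 3). snx13, which carries an RGS domain beside its lipid-binding domain, changed most clearly, at 114, 119 and 132 CPM in PGC libraries and 11.8, 10.6 and 10.3 CPM in endoderm libraries (3.47 ± 0.25, adjusted p = 4.69e-07). The groups lay far apart, and the log2 fold change stayed between 3.35 and 3.79 over the other settings. The other snx13 gene model stood at 1.49 and did not pass.

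snx30 and snx1 rose in both of their gene models. snx30 Xelaev18001240m stood at 56.3, 70.0 and 28.4 CPM in PGC libraries and 10.4, 2.62 and 0.567 CPM in endoderm libraries (3.47 ± 0.79, adjusted p = 0.00522), with 2.99 to 5.0 over the other settings; endoderm replicate 3 held 5 of its counts. The other snx30 gene model rose by 1.60 ± 0.45, a call lost without PGC replicate 2 (1.47). snx1 encodes a partner of retromer, and Xelaev18018086m stood at 82.6, 61.4 and 45.9 CPM against 17.3, 21.7 and 21.7 CPM (1.65 ± 0.33, adjusted p = 0.00222). Its other gene model rose by 1.15 ± 0.39, lost on leaving out any of PGC replicates 2 and 3 and endoderm replicates 1 and 2, at 0.92 to 1.47 over all settings. The calls of the second snx30 and second snx1 gene models did not both hold when scaling followed expression level, where 6 sorting nexin gene models were higher.

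snx8 and snx10 also held under every setting tried. snx8, of endosome-to-Golgi transport, stood at 58.9, 53.3 and 72.5 CPM in PGC libraries and 23.7, 15.7 and 14.1 CPM in endoderm libraries (1.79 ± 0.33). snx10, of endosome and lysosome homeostasis, stood at 91.1, 86.4 and 100 CPM against 29.4, 33.7 and 26.9 CPM (1.62 ± 0.24). snx9 of endocytosis (1.40 ± 0.42) and snx31 (2.14 ± 0.72) passed with all 6 libraries, but snx9 was lost on leaving out PGC replicate 2 or 3 or endoderm replicate 1, and snx31 on leaving out any of PGC replicates 1 and 3 and endoderm replicates 1 and 3. Over the fits without 1 library they stood at 1.25 to 1.54 and 1.72 to 2.64, and both were lost when scaling followed expression level. The 1 sorting nexin that fell was snx12, a small member close to snx3, at 44.4, 61.1 and 40.3 CPM in PGC libraries and 143, 105 and 155 CPM in endoderm libraries (-1.47 ± 0.24, adjusted p = 0.000542). The second gene models of snx10 (0.75), snx9 (0.59), snx31 (0.88) and snx12 (-0.63) did not pass.

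Of the retromer core, which returns receptors from endosomes to the Golgi, vps35 fell in 1 gene model, from 327 ± 68.4 to 171 ± 8.96 CPM (-0.93 ± 0.16; lost, at -0.35, when scaling followed expression level). The second vps35 gene model stood at 0.04. vps13b, a bridge-like lipid transfer protein, fell by 0.79 ± 0.13, likewise lost when scaling followed expression level (-0.23). The vps26b gene models had fitted values of 3.14 and 5.47 and did not pass; the larger value rests on 62, 198 and 48 counts in PGC libraries and 9, 0 and 0 in endoderm libraries. Among ESCRT genes, which bud vesicles into the endosome lumen and sever membranes, 1 of 21 gene models was higher and 4 lower, 4.76% and 19.0% beside 12.6% and 16.8% of all gene models. Both gene models of chmp4b, the main filament subunit of ESCRT-III, fell and held under every setting tried. Xelaev18043991m stood at 71.5, 91.6 and 42.4 CPM in PGC libraries and 136, 154 and 187 CPM in endoderm libraries (-1.21 ± 0.26), and Xelaev18046645m fell by 0.93 ± 0.20. chmp1b (-1.08 ± 0.32) and chmp6 (-0.78 ± 0.20) fell and chmp1a rose (2.02 ± 0.65), but these 3 calls were lost without at least 1 library, with values of -0.86 to -1.31, -0.59 to -0.86 and 1.77 to 2.45 over those fits, and under at least 1 other scaling. The libraries concerned were PGC replicates 2 and 3 and endoderm replicates 1 and 3 for chmp1b, endoderm replicate 1 for chmp6, and each library but endoderm replicate 2 for chmp1a. The other gene models of chmp1b and chmp6 stood at -0.22 and 0.37 and did not pass.

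The adaptors AP-1 to AP-4, which select cargo at the plasma membrane, Golgi and endosomes, gave 4 higher and 0 lower calls among 22 gene models, 18.2% higher beside 12.6% of all gene models. They were ap3d1 (0.93 ± 0.27) and ap3s1 (1.80 ± 0.60) of AP-3, which serves lysosome-related organelles, ap1m1 (1.22 ± 0.42) of AP-1 and ap4e1 (4.75 ± 1.60) of AP-4, each in 1 of 2 gene models. The other gene models of ap3d1, ap1m1 and ap4e1 had negative values (-0.14, -0.48 and -1.54) and that of ap3s1 a positive one (1.35), and none of these 4 passed. The ap3d1 call ended on leaving out PGC replicate 3 or endoderm replicate 1 (0.64 and 0.85), ap3s1 without any one PGC replicate (1.70 to 1.91), and ap1m1 on leaving out any of PGC replicates 1 and 3 and endoderm replicates 1 and 3 (0.94 to 1.39). In all, 1 adaptor was higher and 1 lower when scaling followed expression level. Adaptor symbols that v9.1 did not list gave lower calls only, as stated below for the second table. ap4e1 rests on 39, 0 and 0 endoderm counts against 180, 375 and 185 in PGC libraries. Without endoderm replicate 1, which held all of its endoderm counts, the fitted value was 10.9, and leaving out any PGC replicate or endoderm replicate 3 ended the call, at 4.99, 4.30, 4.91 and 4.23. HOPS and CORVET tether late and early endosomes. The HOPS subunit vps39 rose by 1.60 ± 0.45, a call lost without PGC replicate 1 (1.53). vps8 of CORVET fell by 1.21 ± 0.36, a call lost on leaving out any of PGC replicates 2 and 3 and endoderm replicates 2 and 3 (-1.21, -1.05, -0.99 and -1.16) and under total-count scaling (-0.89). vps45, a Sec1/Munc18 regulator of endosomal SNAREs, fell by 0.96 ± 0.21, from 100 ± 7.58 to 51.6 ± 6.28 CPM.

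**Figure D3:**
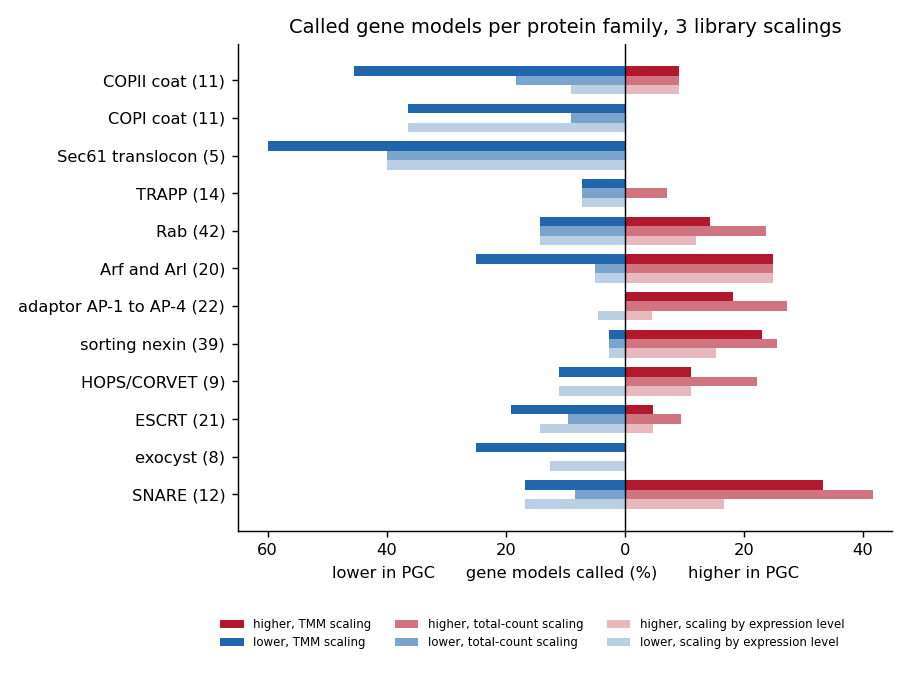
Percentage of gene models called higher (right, red) or lower (left, blue) in PGCs for 12 protein families, with the number of gene models in brackets, under 3 library scalings. Of all gene models, 12.6% were higher and 16.8% lower in the main test. Under total-count scaling these shares were 18.6% and 10.8%, and under scaling by expression level 12.5% and 11.2%. Sorting nexins have more higher than lower calls under each scaling (9 and 1, 10 and 1, 6 and 1), Sec61 has lower calls only (3, 2 and 2), and the bars of Arf and Arl genes on the left shrink from 5 calls to 1 under the other scalings.

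SNAREs, which drive fusion, gave 4 higher and 2 lower calls among 12 gene models. These shares, 33.3% and 16.7%, stood beside 12.6% and 16.8% of all gene models. Both gene models of vamp7, a SNARE of late endosomes and lysosomes, rose. vamp7 Xelaev18038953m stood at 124, 120 and 112 CPM in PGC libraries and 30.4, 21.6 and 24.5 CPM in endoderm libraries, 4.65-fold higher (2.22 ± 0.23, adjusted p = 1.63e-05), with 2.13 to 2.53 over the other settings. The second, Xelaev18042285m, stood at 36.4, 52.3 and 31.8 CPM against 12.9, 15.9 and 7.26 CPM (1.74 ± 0.44), and its call was lost without PGC replicate 2 (1.5). vamp8, also an endosomal SNARE, fell in 1 gene model, from 72.3, 85.3 and 92.8 CPM in endoderm libraries to 35.2, 36.4 and 48.7 CPM in PGC libraries (-1.06 ± 0.25, adjusted p = 0.00703).

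The endosomal syntaxins went both ways, stx12 up by 1.17 ± 0.40 and stx8 down by 2.68 ± 0.82. Neither call held in every fit without 1 library, with values of 1.01 to 1.32 and -3.25 to -2.35 over those fits. stx12 was lost on leaving out any of PGC replicates 2 and 3 and endoderm replicates 1 and 3 (1.17, 1.01, 1.10 and 1.28), and stx8, at 84, 28 and 31 counts in PGC libraries and 390, 230 and 210 in endoderm libraries, was lost without the same 4 libraries (-2.44, -2.48, -2.70 and -2.35). Both were also lost with the replicate number as a block, at 1.16 and -2.77. The stx8 call was lost under total-count scaling as well, where 1 SNARE gene model was lower. Of the 3 higher fusion calls, stx12 and both of vamp7, 2 held under both other scalings. The call that did not was stx12 or vamp7 Xelaev18042285m. Exocyst genes, for tethering at the plasma membrane, gave 2 lower calls and 0 higher among 8 gene models. Of all gene models 16.8% were lower and 12.6% higher. Under total-count scaling 0 exocyst gene models were lower, and under scaling by expression level 1. The 2 calls were exoc1 (-1.18 ± 0.30, with 0.07 and no call in its other gene model) and exoc2 (-0.77 ± 0.27). The first was lost without endoderm replicate 2 (-0.82) and under total-count scaling (-0.86), and the second under 11 of the 13 other settings. exoc5 stood at -0.12 and 0.11 in its 2 gene models and did not pass.

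Outside these routes, 3 Arf-like genes rose and held under every setting tried. arl9, an Arf-like GTPase of little-known function, stood at 156, 200 and 142 CPM in PGC libraries and 14.8, 20.4 and 12.0 CPM in endoderm libraries, 10.5-fold higher (3.39 ± 0.26, adjusted p = 1.05e-06). arl2, which with its cofactors serves tubulin folding and mitochondria, stood at 32.4, 50.4 and 43.6 CPM against 4.98, 11.6 and 11.3 CPM (2.18 ± 0.46). In both genes the lowest PGC library lay well above the highest endoderm library. arl4a, a plasma membrane Arl, stood at 133, 162 and 96.9 CPM against 62.7, 72.2 and 48.5 CPM in Xelaev18030913m (1.09 ± 0.24). arl10 fell by 1.06 ± 0.33, a call lost on leaving out any of PGC replicates 1 and 2 and endoderm replicates 1 and 2 (-0.93, -1.04, -1.04 and -0.75), under total-count scaling (-0.74) and with the replicate number as a block (-1.03). Arf and Arl genes together gave 5 higher and 5 lower calls among 20 gene models, and 5 and 1 under either other scaling. Of all gene models 12.6% were higher and 16.8% lower in the main test. These shares were 18.6% and 10.8% under total-count scaling, and 12.5% and 11.2% under scaling by expression level.

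Xenopus laevis is allotetraploid, so many genes are present as 2 homeologs. Of the member symbols, 96 had exactly 2 gene models, which carried no mark of their subgenome. Both were higher in PGCs for 5 symbols and both lower for 6, while 0 had calls in opposite directions, where 1.37% of all 3512 such pairs had. The share of all such pairs with both called the same way was not taken, so the first counts have no background. The PGC over endoderm ratios of the 2 gene models differed for 3 of the 96 pairs by edgeR's quasi-likelihood test with library as a block, adjusted over all pairs, where 9.74% of all pairs differed. rab32 was the clearest, with the fall given above in Xelaev18026748m and 4.51, 10.3 and 14.7 CPM in PGC libraries against 7.97, 4.56 and 2.50 CPM in endoderm libraries in Xelaev18029005m. The latter groups overlapped (0.97 ± 0.96), and the ratios differed by 2.88 ± 0.49 (adjusted p = 0.00775), a call kept without any one library (2.50 to 3.37).

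For vamp8 the gene model that fell was paired with one at 41.2, 26.3 and 54.1 CPM in PGC libraries and 25, 24.4 and 25.3 CPM in endoderm libraries, which did not pass (0.70 ± 0.36). The fallen gene model's ratio less the other's was -1.71 ± 0.43 (adjusted p = 0.0415), a call lost without any one library (adjusted p = 0.0578 to 0.123, differences of -1.58 to -1.93). The second arl4a gene model stood at 69.3, 66.9 and 76.0 CPM against 82.9, 91.1 and 83.5 CPM (-0.28 ± 0.20, not passed), a difference of -1.36 ± 0.35 from the first (adjusted p = 0.0436). This call remained without PGC replicate 3 (-1.61) and was lost without each other library (-1.15 to -1.45).

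**Figure D4:**
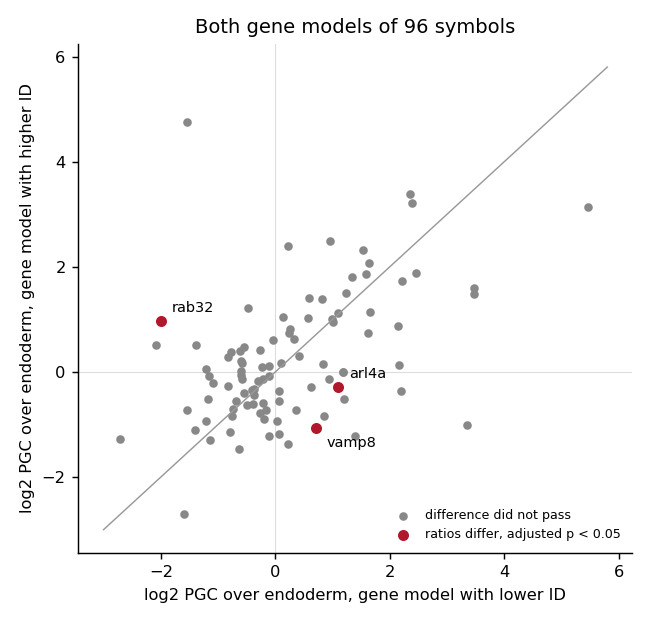
Log2 fold change of PGC over endoderm in both gene models of the 96 member symbols that had 2, ordered by ID, with the line of equal values. The 3 pairs whose ratios differed at an adjusted p under 0.05 are red; rab32 lies farthest from the line among them, and points farther off, such as that at -1.54 and 4.75 (ap4e1), did not pass.

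Regulators and partners of the members were read from a list of 146 symbols, of which 79 were in the table with 123 gene models. Of these, 10 were higher and 14 lower in PGCs, with a median log2 fold change of 0.22. These shares, 8.13% and 11.4%, lay below the 12.6% and 16.8% of all gene models. rabggtb, the catalytic subunit of the enzyme that attaches prenyl anchors to Rabs, stood at 49.3, 50.5 and 76.7 CPM in PGC libraries and 182, 224 and 223 CPM in endoderm libraries (-1.83 ± 0.21, adjusted p = 3.31e-05). Clathrin heavy chain cltc fell in both gene models, by 0.88 ± 0.13 and 0.73 ± 0.12, with values of -0.26 and 0.01 and no call when scaling followed expression level. The light chain cltb rose by 0.77 ± 0.21, from 58.2 ± 8.60 to 99.4 ± 4.73 CPM, under every setting tried. dnm2, the dynamin that severs clathrin-coated pits, fell by 1.11 ± 0.24, and eps15, an endocytic scaffold, by 0.85 ± 0.18. hip1, which joins clathrin to actin, rose from 10.1 ± 3.27 to 40.7 ± 10.7 CPM (2.01 ± 0.44), and stxbp3, a Sec1/Munc18 regulator of plasma membrane SNAREs, from 49.5 ± 1.66 to 107 ± 11.5 CPM (1.12 ± 0.21). The calls of rabggtb, dnm2, eps15, hip1 and stxbp3 held under every setting tried. Each of rabggtb, dnm2, eps15, cltb and stxbp3 had a second gene model that did not pass (-0.46, -0.96, -0.57, 0.17 and 0.20). asap3, an Arf GTPase-activating protein, had 1 count in the PGC libraries together and 661 in the endoderm libraries, and its lower call held as well. gcc1 (1.85 ± 0.54), appl2 (1.60 ± 0.44), cyth2 (1.58 ± 0.47) and golga5 (1.10 ± 0.35) were called higher and m6pr (-1.27 ± 0.41), dennd1a (-1.12 ± 0.39) and tbc1d15 (-0.95 ± 0.31) lower, in 1 gene model each, and each of these 7 calls was lost without endoderm replicate 1 and at least 1 other library.

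The second table, named v7.1, listed 193 members by the same rule, with 26 higher and 28 lower in PGCs (12.8% and 16.1% of its 7902 gene models). Of these, 68 gene models carried 57 symbols that v9.1 did not list. Among those 68, 11 were higher and 10 lower, where 12.8% and 16.1% of all v7.1 gene models were. Their log2 fold changes come from the v7.1 counts alone. sec16a, the scaffold of ER exit sites, had 335, 122 and 93 counts in PGC libraries and 1246, 980 and 288 in endoderm libraries (-2.09 ± 0.49), and the COPI subunit copb1 457, 384 and 278 against 1743, 1047 and 473 (-1.43 ± 0.32). exoc7 of the exocyst fell by 1.98 ± 0.39 and ap2b1 of the endocytic adaptor AP-2 by 1.23 ± 0.24 in 1 of its gene models. These 4 calls held without any one library and under both other scalings. So did the fall of a gene model with the symbol ap1s3 (-1.77 ± 0.31), which also carries the name wdfy1.b. ap2m1 of AP-2 was called lower as well (-0.58 ± 0.18), lost under both other scalings and without some single libraries. No adaptor that only v7.1 lists was called higher.

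Upward, the ESCRT-I gene vps28 had 1222, 953 and 1325 counts in PGC libraries and 662, 270 and 157 in endoderm libraries (1.85 ± 0.33, adjusted p = 0.000786), and held likewise, as did stx16, a Golgi syntaxin, at 1.27 ± 0.30 in 1 gene model. vps4a, the ATPase that disassembles ESCRT-III, rose by 2.58 ± 0.71, a call lost without PGC replicate 3 (2.43), and rab8b, a Rab of exocytosis and cilia, by 1.69 ± 0.46, lost without PGC replicate 2 (1.58). arf6, the Arf of the plasma membrane, rose by 0.88 ± 0.29, but it was lost on leaving out any of PGC replicates 2 and 3 and endoderm replicates 2 and 3, with values down to 0.54. Of other ER-Golgi genes, sec62 (0.60 ± 0.20), trappc3 (1.12 ± 0.34) and arl5a (1.78 ± 0.52) were called higher. Each was lost on leaving out PGC replicate 2 or 3, among other settings. Called lower were arl5c-b (-1.585 ± 0.198), which held, and rab6a (-0.86 ± 0.21), lost without endoderm replicate 1. So was arl5b (-0.79 ± 0.22), lost under both other scalings and without some single libraries.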

How the data were processed

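RNA of 3 PGC and 3 endoderm libraries was read as 100-bp paired ends, per the labels' protocols. The submitters' processing notes name HTSeq 0.6.0, edgeR 3.12.0, TopHat2 2.1.0, SAMtools 1.2 and Bowtie2 2.2.6 with no role; the sources used here give no settings or strand use, and no build other than the table names v9.1 and v7.1, so near-identical copies and overlapping genes are uncertain. Deposited read counts per gene model and library were tested. No gene model had under 150 counts over the 6 libraries. The deposited normalized signal columns, log2 columns, fold (ratio) columns, likelihood ratio score and p-value columns of the authors were not used.

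The main test was that of edgeR 4.0.16 under R 4.3.3 (quasi-likelihood test, TMM scaling, 1 term for cell type, two-sided, Benjamini-Hochberg adjustment over all gene models, threshold 0.05). filterByExpr (minimum count 10, minimum total 15) removed 0 gene models. CPM used the TMM effective library size. Scaling by expression level used lowess offsets with a span of 0.3. The steps were tested on simulated counts in which few gene models changed, in random directions, with the same dispersion for all. Those counts lack the trend of fold change with level seen here, so they do not bear on the choice of scaling. Other settings were DESeq2 size factors and the DESeq2 1.42.0 Wald test, total-count scaling, lowess offsets, no filter, at least 50 counts in 3 libraries, a replicate block and leaving out each library.

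The members and lists were chosen with earlier results of these data known. Genes were named as the largest non-overlapping calls of each role group above a mean of 5 CPM, the most counted members, member pairs that differ and label checks; further called or related members were named after their values were seen, and the protein families and the symbols that only v7.1 lists were added then. Of 157 member symbols, 150 were found in RefSeq's table of genes (assembly Xenopus_laevis_v10.1), used for names only. No sequences or coordinates were analysed here.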

Additional observations from a re-analysis of the deposited data

How the results depend on the processing

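Over other settings the count of members higher in PGCs, 32 in the main fit, was 23 to 45, and without 1 library each 19 to 29; the count lower, 38, was 21 under total-count scaling, 22 at 2-fold or more, and 27 to 32 without 1 library each. ER-Golgi members higher were 3 with scaling by expression level and 3 to 5 without 1 library; those lower were 12 under total-count scaling, scaling by expression level or a 2-fold limit, and 16 to 20 without 1 library. Endosomal members higher were 12 of 94 in v7.1 and 11 to 19 without 1 library; those lower were 6 at 2-fold or more and 9 to 12 without 1 library. Fusion members higher were 1 to 3 without 1 library; those lower were 1 under total-count scaling, 1 of 22 in v7.1, 2 with a replicate block and 2 to 3 without 1 library. Other trafficking genes higher were 21 under total-count scaling and 3 to 14 without 1 library, with 3, 4 and 6 without endoderm replicate 1, PGC replicate 3 and endoderm replicate 3; those lower were 6 under total-count scaling or scaling by expression level, 5 at 2-fold or more and 8 to 11 without 1 library. Member pairs that differ were 1 to 3 without 1 library. Of the v7.1-only members, 7 were higher with scaling by expression level, and 3 to 11 without 1 library, with 3, 6 and 6 without PGC replicates 2 and 3 and endoderm replicate 3; 7 to 10 were lower without 1 library. These v7.1 settings were chosen after seeing the data. Shares of all gene models were not counted for the fits without 1 library. The cause of these shifts was not tested.

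For 44 named members under 13 settings, 486 of 572 values kept their direction and side of the threshold, 83 lost the call and 3 turned: exoc5 Xelaev18039839m to 0.20 and 0.089 with total-count scaling and scaling by expression level, and arl4a Xelaev18033007m to 0.039 with total-count scaling, none of which was a call. The values kept include those of the setting without a filter, which could not differ from the main fit. Replicate numbers did not pair the libraries, with correlations of -0.019 to 0.01 between deviations of same-numbered libraries. With the replicate number as a block, 26 members were higher and 34 lower, with 4 and 20 ER-Golgi, 17 and 12 endosomal and 2 and 2 fusion members. Counts of the sparsest members limit what can be seen: 6 had 0 counts in endoderm replicate 2, with a mean of at least 50 in endoderm replicates 1 and 3. Members at 0 numbered 0, 13 and 9 in endoderm replicates 1, 2 and 3, and 3, 1 and 2 in PGC replicates 1, 2 and 3. Over all gene models these numbers were 35, 603 and 487, and 98, 106 and 145. Total counts of endoderm replicates 2 and 3 were 20.2 M and 9.9 M. Why zeros were more frequent in these libraries was not tested.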
